A study of Mus musculus with 8 samples.

Results

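Tspoap1 and 4 genes near it on mouse chromosome 11, Supt4a, Rnf43, Hsf5 and Mtmr4, were followed in 8 RNA-seq libraries of Eμ-Myc lymphoma cells treated with the BET bromodomain inhibitor JQ1. The 5 genes are rows of a matrix of 43629 genes and were taken by their Ensembl identifiers, and 3 of them had enough reads for a test. Tspoap1 was selected on its measured rise after JQ1, so its rise in each line and averaged over lines is given as a description without a p-value. Differences between the lines are other contrasts of the same libraries and were tested. They are orthogonal to the rise averaged over lines. Whether the rise that chose Tspoap1 was the averaged one is not given, so their p-values may depend on the choice. The other 4 were selected by position, and the question was whether they followed it.

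The study used the lymphoma lines #1.1 and #1.2, described as Eμ-Myc lymphoma on a C57BL/6 background. In the Eμ-Myc model a Myc transgene is driven by the immunoglobulin heavy chain enhancer in B lineage cells, and all 4 groups carry it. Each line was exposed for 2 h to 250 nM JQ1 or to the vehicle DMSO, which gave 4 groups of 2 libraries. The labels do not say that replicate libraries were grown as separate cultures. Each p-value therefore rests only on the spread between libraries of the same group, which may be technical. That spread was pooled over the 4 groups and drawn towards the spread of other genes. Whether each line is a single clone is not given in the sources used here.

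Tspoap1 encodes a RIM-binding protein, a scaffold that links calcium channels to the vesicle release machinery at the presynaptic active zone, and the same protein binds the mitochondrial translocator protein TSPO. Supt4a encodes the small subunit of DSIF, which acts with its partner Supt5 on pausing and elongation by RNA polymerase II. Rnf43 is a membrane ubiquitin ligase that removes Frizzled receptors, Hsf5 belongs to the heat shock factor family and is known from testis, and Mtmr4 is an endosomal lipid phosphatase of the myotubularin family. JQ1 displaces BET proteins from acetylated chromatin.

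All 5 genes lie on the plus strand (GRCm38, GENCODE M21). Tspoap1 (ENSMUSG00000034156) spans 87760541 to 87785928 on chromosome 11. Upstream of it lie Supt4a (ENSMUSG00000020485) at 87737552 to 87743623, Rnf43 (ENSMUSG00000034177) at 87662722 to 87735539, Hsf5 (ENSMUSG00000070345) at 87617164 to 87659542 and Mtmr4 (ENSMUSG00000018401) at 87592162 to 87616302. The gap from the end of Supt4a to the start of Tspoap1 is 16.9 kb. Between them lies Mir142hg, the host transcript of the blood cell microRNA miR-142, at 87755577 to 87757270, which ends 3.27 kb before Tspoap1. On the other side the first gene is Mpo, the neutrophil myeloperoxidase, which starts 7.65 kb after the end of Tspoap1. In GENCODE M21 none of the 5 genes shares an exonic base with another annotated gene. The annotation release behind the counts is not given, so how reads were assigned cannot be told from this.

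The mature microRNAs of the gene between Supt4a and Tspoap1 are shown because they are the nearest annotated products to the Tspoap1 start, with the seed (bases 2 to 8) in capitals (RefSeq, GRCm38.p6). They lie at chr11:87756867-87756887 (plus strand), chr11:87756903-87756925 (plus strand) and chr11:87756906-87756925 (minus strand), in the order printed. The 3 seeds differ from each other.
mmu-miR-142a-5p: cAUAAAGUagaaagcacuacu
mmu-miR-142a-3p: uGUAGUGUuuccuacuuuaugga
mmu-miR-142b: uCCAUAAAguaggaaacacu

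The sequence before the start site was in the RefSeq promoter table for 3 of the 5 genes. Those of Supt4a and Hsf5 are shown because both are rich in CpG while Supt4a had 739 to 1009 reads in each library and Hsf5 had 1 read in all. Capitals mark GGGCGG or CCAAT on either strand, words found in 32.7% and 33.8% of 32851 promoters, respectively. Supt4a is printed from chr11:87737301-87737550 and Hsf5 from chr11:87616914-87617163, both on the plus strand.
Supt4a: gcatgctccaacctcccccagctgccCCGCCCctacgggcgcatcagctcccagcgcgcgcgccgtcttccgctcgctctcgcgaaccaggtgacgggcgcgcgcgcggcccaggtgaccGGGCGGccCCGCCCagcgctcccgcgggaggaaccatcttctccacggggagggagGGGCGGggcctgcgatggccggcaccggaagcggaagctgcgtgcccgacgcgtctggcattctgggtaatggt
Hsf5: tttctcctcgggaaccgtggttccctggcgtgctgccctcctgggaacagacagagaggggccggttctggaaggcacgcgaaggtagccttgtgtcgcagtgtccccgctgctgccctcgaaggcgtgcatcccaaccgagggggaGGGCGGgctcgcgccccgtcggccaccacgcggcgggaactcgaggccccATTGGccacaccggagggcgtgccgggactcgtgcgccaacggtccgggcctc
The 250 bases before Supt4a held 34 CpG, more than 96.5% of the promoters in the table, and 4 GGGCGG words. Those before Hsf5 held 27 CpG, more than 91.4%, with 1 GGGCGG and 1 CCAAT. Rnf43, which is not shown and had 3 reads in all, held fewer. Its start sites at 87663087 and 87699897 had 8 and 2 CpG, more than 57% and 18.8% of the promoters. The median promoter held 6 CpG.

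The libraries held 10347453 to 13049877 reads assigned to genes, and 12413 genes were tested. Reads in no annotated feature made up 12.3% to 13.1% in DMSO and 14% to 14.4% in JQ1 libraries. The part of this shift in the results was not tested. Of 7 B lineage markers 5 passed the filter on low counts, led by Cd79a at 398 CPM (reads scaled to library size). All 5 were called lower after JQ1, against 31.3% of all tested genes. Their median log2 change was -0.79, and that of Cd79a was -0.26. The summed level of the 7 was 1230 to 1350 CPM in DMSO and 771 to 890 CPM in JQ1 libraries, and its part in the results was not tested. None of 5 T cell or 3 erythroid markers passed the filter, and of 8 myeloid markers 1 did, Itgam at 1.06 CPM, which fell by 0.7 on the log2 scale, with Lyz2, Elane, Ly6g and Epx at 0 reads. Of 4 neuronal markers Map2 passed, at 11.4 CPM (log2 change -0.12, edgeR adjusted p = 0.272), while Rbfox3 and Syt1 had 0 reads.

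Tspoap1 was read at a low level in both lines without drug and at a high level in both after 2 h of JQ1. In line 1.1 it had 92 and 84 reads in the DMSO libraries, and 3053 and 2599 in the JQ1 libraries. In line 1.2 it had 181 and 224 reads in DMSO, and 3317 and 2987 in JQ1. Every JQ1 library lay above every DMSO library, and the DMSO libraries of line 1.2 lay above those of line 1.1. Scaled to library size, line 1.1 had 7.51 ± 0.74 CPM in DMSO and 245 ± 11 CPM in JQ1, and line 1.2 had 17.4 ± 1.6 and 278 ± 19 CPM (mean ± SD, n = 2 per group). The fitted change was 32.8-fold in line 1.1 (log2 5.03 ± 0.087, SE) and 15.9-fold in line 1.2 (log2 3.99 ± 0.075, SE). These SE values come from the test statistic and can be too small for a change this large.

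The averaged change of Tspoap1 was 4.51 ± 0.057 (log2, SE), or 22.8-fold. It ranked 8 among all 12413 tested genes and 1 among the 9382 with a mean of at least 5 CPM, so "largest rise" holds for the genes above that level. The next in that order were the histone genes Hist1h1c at 3.98 and Hist1h2bc at 3.55. By level, Tspoap1 moved from position 8770 to 793 in line 1.1 and from 7264 to 656 in line 1.2 when the tested genes were ordered by CPM. Per kilobase of exon, the level was 0.791 RPKM in DMSO and 25.7 RPKM in JQ1 for line 1.1, against 1.84 and 29.3 RPKM for line 1.2. On the same scale the group means of Supt4a were 71.4 to 79.9 RPKM and those of Mtmr4 10.8 to 11.8 RPKM, so Tspoap1 lay below both without drug and between them after JQ1.

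**Figure D1:**
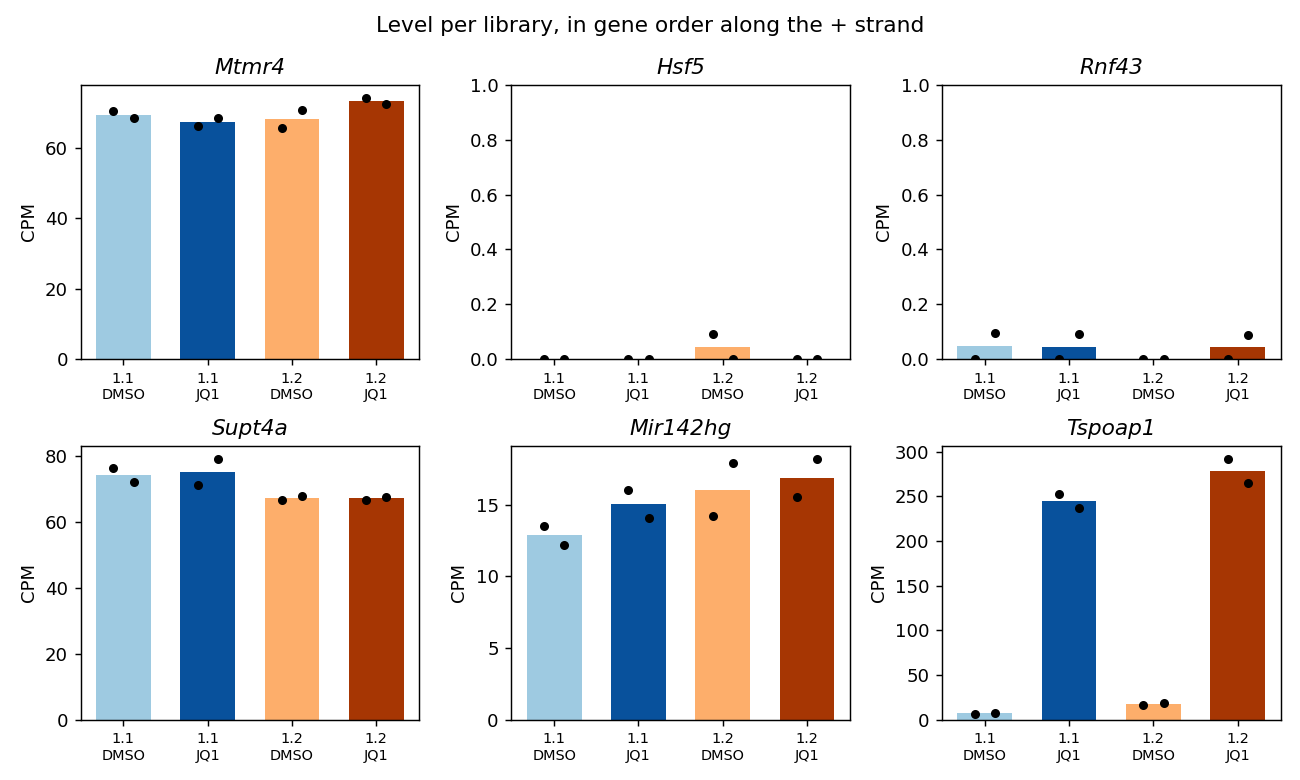
Level in CPM (vertical axes, linear, each panel with its own scale) of the 5 genes and Mir142hg by line and treatment; points are the 8 libraries and bars the means of 2. Those of Tspoap1 lie between 6.99 and 18.5 in DMSO and between 237 and 292 in JQ1, while Supt4a and Mtmr4 lie between 65.6 and 79.3 in all libraries.

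The lines differed in Tspoap1 without drug. The line contrasts given here use the same libraries as the rise that chose Tspoap1, so their p-values may depend on that choice. Tspoap1 was 2.34-fold higher in line 1.2 than in line 1.1 under DMSO (log2 1.23 ± 0.13, SE; edgeR adjusted p = 5.15e-07), and both libraries of line 1.2 lay above both of line 1.1. Such a difference was called for 6.77% of tested genes. The log2 response to JQ1 was smaller in line 1.2, by -1.04 ± 0.14 (SE; 95% interval -1.34 to -0.75; edgeR adjusted p = 0.000719). A difference of the JQ1 effects was called for 0.113% of tested genes, or 14. On the linear scale the gain was 237 ± 11 CPM in line 1.1 and 261 ± 19 CPM in line 1.2 (difference of means, n = 2 per group). The ± is the SD of a difference between single libraries, not between means. The difference between the 2 gains was not tested. Under JQ1 the lines differed by 1.14-fold (log2 0.19 ± 0.053, SE; edgeR adjusted p = 0.0348), a contrast added after the data had been seen and called for 6.4% of genes. That call was lost without line 1.1 JQ1 replicate 1 (adjusted p = 0.101), line 1.1 JQ1 replicate 2 (0.36), line 1.2 DMSO replicate 1 (0.0527) or line 1.2 JQ1 replicate 1 (0.485), and with DESeq2 (0.245).

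Supt4a, the nearest listed neighbour, did not pass the test in either line. Its level in line 1.1 was 76.6 and 72.3 CPM in DMSO and 71.2 and 79.3 CPM in JQ1. In line 1.2 it was 66.7 and 68.0 CPM in DMSO and 66.8 and 67.7 CPM in JQ1. DMSO and JQ1 libraries overlapped in both lines. The averaged log2 change was 0.00 ± 0.045 (SE; 95% interval -0.09 to 0.1; edgeR adjusted p = 0.936). Neither the difference of the JQ1 effects between lines (-0.01 ± 0.091, edgeR adjusted p = 0.987) nor the lines under DMSO (-0.15 ± 0.064, edgeR adjusted p = 0.187) passed.

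Mtmr4, whose start lies 168 kb before that of Tspoap1, also did not pass. In line 1.1 it had 70.5 and 68.4 CPM in DMSO and 66.1 and 68.6 CPM in JQ1, which overlapped. In line 1.2 it had 65.6 and 70.9 CPM in DMSO and 74.2 and 72.5 CPM in JQ1, with both JQ1 libraries above both DMSO libraries. Non-overlap of this kind does not by itself make a call, and its share over all tested genes was not counted. The change in line 1.2 was 0.1 ± 0.062 (log2, SE; edgeR adjusted p = 0.174). The averaged change was 0.03 ± 0.044 (95% interval -0.06 to 0.12; edgeR adjusted p = 0.594), and the lines' effects did not differ past the threshold (0.15 ± 0.087, edgeR adjusted p = 0.668).

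Rnf43 and Hsf5 were at the limit of detection in all groups. Rnf43 had 3 reads in the 8 libraries together, 1 each in line 1.1 DMSO replicate 2, line 1.1 JQ1 replicate 2 and line 1.2 JQ1 replicate 2. Hsf5 had 1 read, in line 1.2 DMSO replicate 1. In a single library 3 reads correspond to 0.228 to 0.287 CPM, and no fold is given for either gene. Over the JQ1 libraries together Rnf43 had 2 reads and Hsf5 0, so neither gene rose to that level in any of them. A fall, or a rise that stayed below that level, could not be seen at this depth.

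Of the 2 listed neighbours that could be tested, 0 were called for the averaged effect, where 62% of all tested genes were called by edgeR. In line 1.1 and line 1.2, where 51% and 49.4% of genes were called, 0 of 2 were called as well. At an unadjusted p under 0.05 neither Supt4a nor Mtmr4 passed for the averaged effect, and DESeq2 called neither (adjusted p = 0.936 and 0.722).

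The transcripts closest to the Tspoap1 start were those of the miR-142 locus. Mir142hg had 13.5 and 12.2 CPM in DMSO and 16 and 14.1 CPM in JQ1 libraries of line 1.1. In line 1.2 it had 14.2 and 17.9 CPM in DMSO and 15.5 and 18.2 CPM in JQ1. The groups overlapped in line 1.2 and not in line 1.1, and the share of all tested genes without overlap was not counted. The averaged change was 0.14 ± 0.089 (log2, SE; edgeR adjusted p = 0.167), and it became 0.24 with an adjusted p of 0.0415 without line 1.2 DMSO replicate 2. Mir142b, annotated on the opposite strand, had 309 reads in all and a change of -0.13 ± 0.21 (edgeR adjusted p = 0.624). In GENCODE M21 Mir142b shares 64 exonic bases with Mir142 on the other strand and 0 with Mir142hg. The counting strand is not given in the sources used here, so reads of Mir142b and Mir142 cannot be told apart. Mpo, on the other side of Tspoap1, had 4 reads in the DMSO and 14 in the JQ1 libraries and was not tested. Lpo had 1 read and Epx 0.

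Within 500 kb on each side the matrix held 41 other genes, of which 13 had no read and 14 were tested. Of these 14, 6 (42.9%) were called for the averaged effect against 62% of all tested genes, 2 higher and 4 lower. Higher calls made up 30.7% and lower calls 31.3% of all genes. None of the 14 was at least 2-fold higher and called, against 3.53% of all genes. The median change was -0.09 for the 14 and 0 for all genes, and the median size was 0.17 against 0.25. In line 1.1 3 of 14 (21.4%) were called, 2 higher and 1 lower, against 51% of all tested genes. That count was 5 without line 1.1 DMSO replicate 1 or without replicate 2 of that group, and 6 with library totals as the scaling. In line 1.2 6 (42.9%) were called, 3 in each direction, against 49.4% of all tested genes. Of those higher 1 was the U1 RNA gene Rnu1a1, with 1 and 1 reads in DMSO and 3 and 11 in JQ1. U1 genes have near-identical copies, so its reads are uncertain. Of the differences of the JQ1 effects between lines edgeR called 0 of 14, and 1, that of Rnu1a1, had an unadjusted p under 0.05 (adjusted p = 0.42). Over all 12413 tested genes 0.113% were called for that difference, and 1000 genes had an unadjusted p under 0.05.

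Dynll2, a dynein light chain gene 227 kb from the Tspoap1 start, had the largest called rise in the averaged effect among the 14, while in line 1.2 alone that of Rnu1a1 was larger (2.69, edgeR adjusted p = 0.0346). It had 70.7 and 70.5 CPM in DMSO and 110 and 112 CPM in JQ1 libraries of line 1.1, and 58.1, 61.8, 97.9 and 100 CPM in line 1.2 in the same order. The groups did not overlap in either line, a pattern whose share over all tested genes was not counted. The averaged change was 0.69 ± 0.04 (log2, SE; edgeR adjusted p = 3.16e-13). Vezf1, a zinc finger transcription factor gene at 308 kb, rose by 0.42 ± 0.047 (log2, SE; edgeR adjusted p = 4.22e-08). Its mean was 63.2 CPM in the DMSO group of both lines, against 80.9 CPM after JQ1 in line 1.1 and 87.6 CPM in line 1.2.

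Mks1, a gene of the ciliary transition zone at 92.7 kb, fell in both lines. It had 7.82 and 9.66 CPM in DMSO and 3.47 and 2.74 CPM in JQ1 libraries of line 1.1, and 10.9, 10.7, 5.11 and 3.55 CPM in line 1.2 in the same order. The averaged change was -1.39 ± 0.14 (log2, SE; edgeR adjusted p = 3.32e-09). Smaller falls were called for Cuedc1 (-0.2, edgeR adjusted p = 0.00289), for the phosphatase gene Ppm1e (-0.14, 0.00852) and for the splicing factor gene Srsf1 (-0.14, 0.00226). The call for Ppm1e was lost with DESeq2 (adjusted p = 0.0547). An antisense gene overlaps Srsf1, and reads of the pair cannot be told apart without the strand. The uncalled genes were the recombination gene Rad51c (-0.28, edgeR adjusted p = 0.169), Rnu1a1 (0.6, 0.522), 2010015M23Rik (-0.33, 0.417) and the mitochondrial ribosome gene Mrps23 (-0.05, 0.376), besides Supt4a, Mtmr4, Mir142hg and Mir142b. Without line 1.1 JQ1 replicate 2, Rad51c was called at -0.54 (adjusted p = 0.0164). Leaving out 1 library also moved Rnu1a1, from 0 without line 1.2 JQ1 replicate 2 to 1.89 without line 1.1 DMSO replicate 2, and 2010015M23Rik, from -0.78 without line 1.1 JQ1 replicate 1 to -0.07 without line 1.1 JQ1 replicate 2, and neither was called in any of these.

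**Figure D2:**
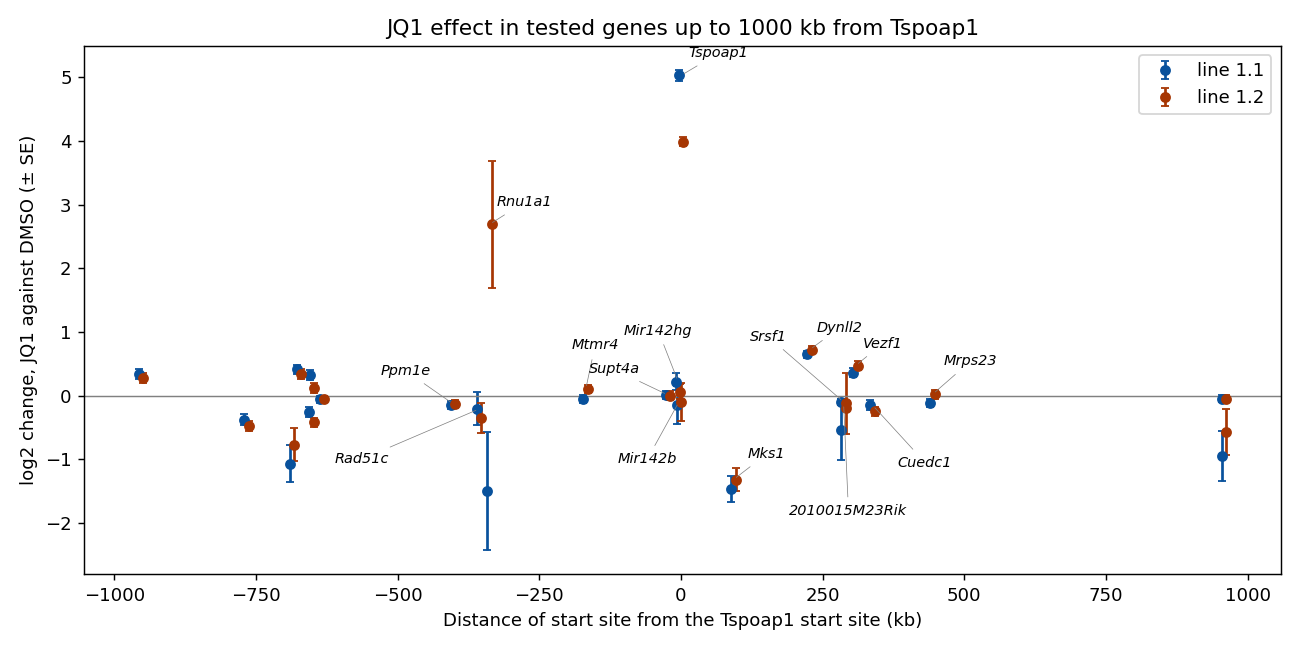
Change after JQ1 (log2, ± SE) in each line against the distance of a gene's start from that of Tspoap1, in kb, for tested genes up to 1000 kb away. Tspoap1 stands at 5.03 and 3.99, the called neighbours within 500 kb run from -1.39 for Mks1 to 0.69 for Dynll2 as averages, and Rnu1a1 rests on few reads.

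The rise that chose Tspoap1 is given once more as its share of the reads in this 500 kb window, as a description and not as separate support. The share was 0.468% and 0.589% in the DMSO libraries of line 1.1 and 1.18% and 1.29% in those of line 1.2. After JQ1 it was 15.3% and 14.5% in line 1.1 and 18.3% and 16.3% in line 1.2. The exact binomial 95% intervals, which cover counting error only, ran from 0.377% to 1.47% over the DMSO libraries and from 14% to 18.9% over the JQ1 libraries. The other 41 genes together held 1360 to 1490 CPM in DMSO and 1300 to 1400 CPM in JQ1 libraries, ranges that overlapped. Ordered by RPKM among the 15 tested genes of the window, Tspoap1 included, it moved from position 15 to 7 in line 1.1 and from 12 to 6 in line 1.2. Srsf1 and Supt4a held the first positions in that order.

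**Figure D3:**
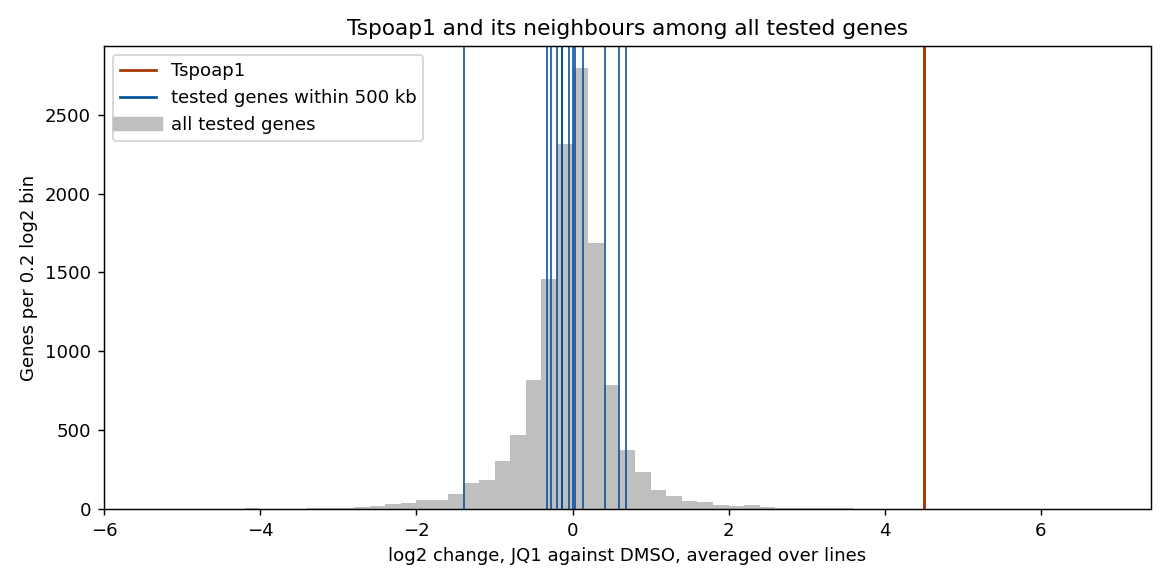
Averaged log2 change after JQ1 for all 12413 tested genes (grey, genes per bin), with lines for Tspoap1 and for the 14 tested genes within 500 kb. Tspoap1 stands at 4.51, and the neighbours lie between -1.39 and 0.69.

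Profiles over the 8 libraries were compared with that of Tspoap1 for 8535 named genes averaging 5 CPM or more, so genes below that level, among them those with a larger averaged rise, were not compared. The 5 closest lay outside the 500 kb window. Likeness was the root mean square difference of log2 CPM profiles, each centred on its own mean, and a flat profile would be at 2.29. The linker histone gene Hist1h1c was at 0.45 and the core histone gene Hist1h2bc at 0.59, both of families whose similar copies can share reads, followed by the Wnt receptor gene Fzd5 at 0.93, Mpzl1 at 0.93 and Cnnm4 at 1.0. Their averaged log2 changes were 3.98, 3.55, 2.94, 3.11 and 2.76. None of these 5 genes had a difference of the JQ1 effects between lines that passed (edgeR adjusted p from 0.83 to 0.979). Such a difference was called for only 0.113% of all tested genes, so its absence in 5 genes says little about them.

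**Figure D4:**
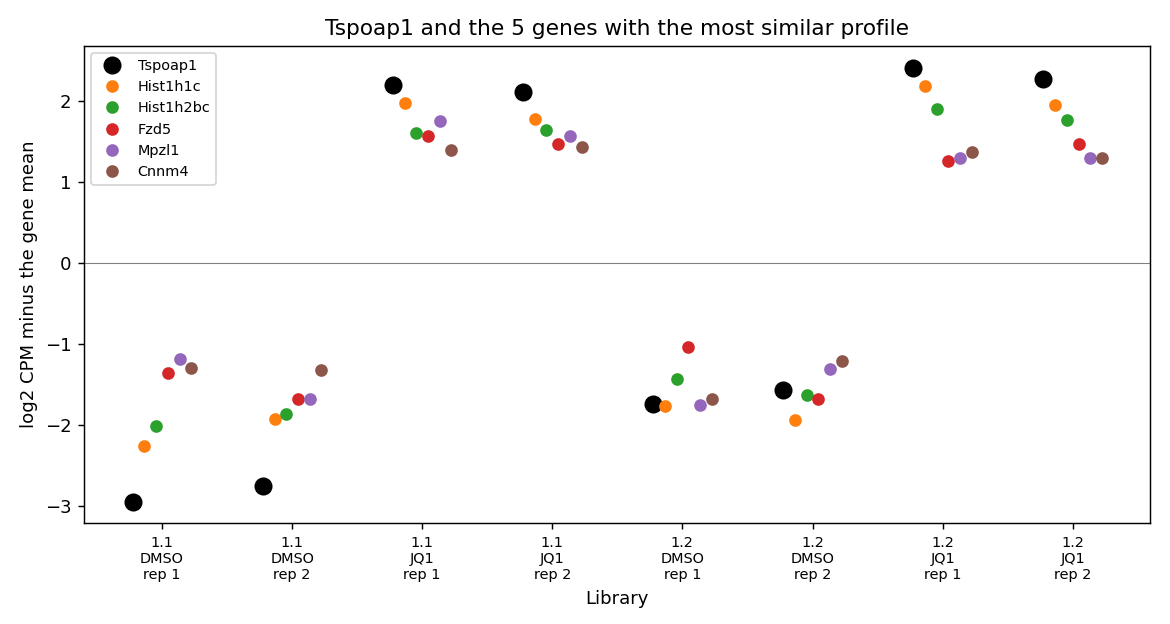
Centred log2 CPM of Tspoap1 and of the 5 genes most like it in each library. In the DMSO libraries of line 1.1 Tspoap1 lies lowest of the 6, and in the JQ1 libraries it lies highest.

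The neighbours of other strongly induced genes are given as a description, because the same contrast chose those genes. Within 500 kb of Hist1h1c, which lies in a histone cluster, 7 of 10 tested genes rose and 6 of them at least 2-fold. Around Fzd5 6 of 8 rose, with Ccnyl1 at 2.34 (log2). Around Mpzl1 3 of 8 rose, with the largest, Dcaf6, at 0.32. Around Slc25a18 4 of 10 rose and around Cnnm4 7 of 18, with none at 2-fold in either case. Around Trp53inp2 3 of 14 rose, 1 of them at least 2-fold, and 5 fell (median -0.08). Tspoap1 stood with 2 of 14 and none at 2-fold. The 12 genes examined, Tspoap1 included, had from 14.3% to 75% of their tested neighbours higher, and over all tested genes 30.7% were higher and 3.53% at least 2-fold higher.

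Genes that work with each member were counted from lists of its pathway. Over all tested genes 30.7% were higher and 31.3% lower, the background for the counts of each list. Of 28 genes of RIM-binding proteins and the active zone, 11 were tested, Tspoap1 among them, with 4 higher, 4 lower and a median change of -0.09. The 4 higher include Tspoap1 itself, which was chosen for its rise. The scaffold gene Bsn fell by 1.38 on the log2 scale and Ppfia4 fell by 1.71, while the vesicle priming gene Unc13a rose by 0.83. The paralogues Rimbp2 and Rimbp3 had 3 reads and 1 read in all. Of 14 tested genes of TSPO and mitochondrial cholesterol import, 5 were higher and 3 lower (median 0.04), among them the steroidogenic regulator Star at 1.14, the ADP/ATP carrier Slc25a4 at 0.32, Acbd3 at 0.19 and Atad3a at -0.1. The call for Acbd3 was lost without line 1.2 DMSO replicate 1 (edgeR adjusted p = 0.0532). Tspo itself, at 42.3 CPM, changed by 0.04 ± 0.06 (edgeR adjusted p = 0.536).

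Of 24 tested genes of DSIF, NELF, P-TEFb and their partners, 14 were higher and 6 lower, with a median of 0.22. The background for this list and the Wnt list below is 30.7% higher and 31.3% lower over all tested genes. The P-TEFb inhibitor Hexim1 rose by 1.30, the capping enzyme of the 7SK RNA Mepce by 0.94, and the elongation complex genes Paf1 and Ctr9 by 0.84 and 0.81 (log2). Supt5, whose protein pairs with that of Supt4a, rose by 0.35 ± 0.032 (edgeR adjusted p = 1.23e-09) while Supt4a stood at 0.00. Of 16 tested genes of RNF43 and Wnt receptor turnover, 8 were higher and 5 lower (median 0.15). Fzd5 and the catenin gene Ctnnb1 rose by 2.94 and 0.79, Lgr5 and Apc fell by 3.27 and 0.42, and Znrf3, the paralogue of Rnf43, rose by 0.28 ± 0.055 (edgeR adjusted p = 8.77e-05).

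Of the heat shock factor list 3 of 7 genes were tested and edgeR called 0 for the averaged effect, with 0 at an unadjusted p under 0.05. The averaged log2 changes were -0.05 for Hsf1, -0.09 for Hsf2 and 0.07 for the binding protein gene Hsbp1. In line 1.1 alone Hsf1 was called lower, at -0.16 (edgeR adjusted p = 0.0392), and in line 1.2 it stood at 0.07 (0.388). Of 18 tested myotubularins and related lipid phosphatases, 5 were higher and 4 lower (median 0.05). Pikfyve, the lipid kinase of endosomes, rose by 0.57 and Mtmr12 by 0.52, while Mtmr2 fell by 0.55 and Mtmr1 by 0.36. Rimbp2, Rimbp3, Tspo, Supt5 and Znrf3 were singled out for their relation to a member after their values had been seen. The share of called genes in all tested genes, 62%, with 30.7% higher and 31.3% lower, is the background for these counts.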

How the data were processed

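RNA was prepared with a Nucleospin kit and libraries with a TruSeq kit, per the labels' protocols. The submitters' processing notes name FastQC, cutadapt 1.7, TopHat, Bowtie2, HTSeq and limma, and the build GRCm38; no annotation release or strand setting was given in the sources used here. The authors deposited raw read counts per gene for 8 libraries. The 5 summary lines were left out of totals and tests. Symbols matched 42462 of 43629 genes.

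Counts were tested with edgeR 4.0.16 in R 4.3.3 (TMM scaling, filterByExpr, 4 group means, quasi-likelihood F test, two-sided, Benjamini-Hochberg over 12413 genes, threshold 0.05). A standard error was the size of the log2 change divided by the root of its F statistic. It can be too small for large changes from few reads, as for Tspoap1. CPM used TMM-scaled library sizes, and RPKM used the GENCODE M21 union exon length. DESeq2 1.42.0, limma 3.58.1 (voom), library-total scaling, other filters and windows, a replicate block and leaving out each library were the alternatives. Tests were checked on simulated data, which had less spread between libraries, fewer changed genes and smaller changes than that of Tspoap1. That check cannot show how the tests perform on the data used here.

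Members and lists were chosen with earlier results of these data known. One marker gene is not reported here. Named genes were the 5 members, every tested gene within 500 kb, the 5 most similar profiles, and from each list up to 4 genes of lowest p among those averaging 1 CPM or more. Same-numbered libraries did not deviate together (r from -0.06 to 0.05).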

Additional observations from a re-analysis of the deposited data

Results flagged for a closer look

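The log2 response of Tspoap1 to JQ1 differed between the lines by -1.04 ± 0.14 (SE), line 1.2 against line 1.1, by a test of the difference itself (edgeR interaction contrast, adjusted p = 0.000719). It was 5.03 in line 1.1 and 3.99 in line 1.2. On the linear scale the order was the other way, with a gain of 237 ± 11 CPM in line 1.1 and 261 ± 19 CPM in line 1.2 (difference of means, n = 2 per group). The ± is the SD of a difference between single libraries, not between means. The difference between the 2 gains was not tested. The DMSO means were 7.51 CPM in line 1.1 and 17.4 CPM in line 1.2, and the JQ1 means 245 and 278 CPM. The difference in log2 response includes the difference without drug and is not separate from it. Its p-value may depend on the choice of Tspoap1 from the same libraries.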

How the results depend on the processing

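Under the alternatives run, the averaged change of Tspoap1 was 4.46 to 4.56, that of Supt4a -0.04 to 0.04 and that of Mtmr4 -0.02 to 0.06 (log2). The line difference of Tspoap1 in its response was -1.14 to -0.93 when 1 library was left out. The number of genes called within 500 kb for the averaged effect was 6, against 2 with a window of 250 kb and 13 with 1000 kb, since the window sets how many genes are counted. In line 1.1 that number was 3, against 6 with library totals as the scaling and 3 to 5 when 1 library was left out, 5 without line 1.1 DMSO replicate 1 or replicate 2; the cause was not tested. With a replicate block 7709 genes were called and the response difference of Tspoap1 was -1.05 (edgeR adjusted p = 0.000176). The block changed no call on a listed member, and the labels give no shared source for equal numbers. Depth limits Rnf43, Hsf5 and Mpo.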
